A study of Mus musculus with 6 samples.

Results

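The angiogenic growth factor genes described here were 9, namely Vegfa, Vegfb, Vegfc, Pdgfa, Pdgfb, Fgf2, Angpt1, Angptl4 and Hgf, chosen by gene symbol from 25001 loci, of which 22601 carried a symbol. Each symbol occurred on 1 locus, and all 9 were found in each of the 6 libraries. The cells were 427.1.86 (427) cells, an epithelial thymoma line of the mouse that expresses epithin/PRSS14, a transmembrane serine protease, and each condition had 1 library. The 427 cells carried the pSUPER vector and, after 2 h without serum, received DMSO or 1 µM PMA, a phorbol ester that activates protein kinase C and induces ectodomain shedding, for 2 h. Cells labelled SPPL2b KD (labelled KD below), derived from 427 cells and directed against SPPL2b, the protease that releases the intracellular domain of epithin/PRSS14 (EICD), were given DMSO or 1 µM PMA. They too had 2 h without serum and then 2 h of treatment. Further cells labelled KD were transfected with GFP vector, without or with Flag-tagged EICD, and were sorted for GFP 24 h later. The labels name an siRNA for the 4 KD libraries, whereas the methods describe a single-cell clone with a stable shRNA in pSUPER, so any difference between the lines is also that of a clone from its parent.

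The products of these genes are secreted signals that act on receptor tyrosine kinases of endothelial, mural or epithelial cells, except for ANGPTL4. VEGF-A is the main growth and permeability factor for blood vessels, VEGF-B binds one of its receptors with a role in lipid handling, and VEGF-C drives growth of lymphatic vessels. PDGF-A and PDGF-B recruit mesenchymal and mural cells. FGF2 is a broadly acting mitogen that is released without a signal peptide. Angiopoietin 1 stabilizes vessels through Tie2. ANGPTL4 inhibits lipoprotein lipase. HGF is the ligand of Met and is made as a single chain that serine proteases, epithin/PRSS14 among them, can activate. Many of them are also made by epithelial and tumor cells, for which VEGF-A and PDGF are classical products after mitogenic or hypoxic stimuli.

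Values were deposited as FPKM, that is, fragments scaled to exon length and to the size of the library, so levels of different genes are on a per-length scale. From the steps between the lowest values, the libraries held an estimated 25300000 to 29000000 fragments, and in each of them 10555 to 10873 loci reached 1 FPKM. The steps were sought in a preset window, which bounds this estimate. The fragments and intervals given below thus rest on an approximate depth. The 10 largest loci took 85.6 to 94.2% of the FPKM sum. Sppl2b, the gene targeted in the cells labelled KD, stood at 9.90 FPKM in 427 cells and at 13.4 in cells labelled KD with DMSO, and at 6.86 and 9.37 with PMA, so its level went against the label. All 6 epithelial markers exceeded 10 FPKM, with a summed FPKM of 6321 to 15017. The summed FPKM was 0.05 to 0.86 for 5 endothelial markers, 0.41 to 2.46 for 6 fibroblast or mural markers and 1.33 to 2.66 for 6 leukocyte markers, with Cd3e and Cd4 listed at 0 in every library. In bulk RNA, fewer cells that express a gene and less of its mRNA per cell cannot be told apart.

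The 250 bases before the start nearest to the edge of the locus (RefSeq, GRCm38.p6) are shown for Vegfa and Hgf, which were more than 2-fold higher with PMA in both lines, and for Vegfb, a relative of Vegfa that was not more than 2-fold different in any comparison. They lie at chr17:46032378-46032627 on the minus strand, chr5:16553245-16553494 on the plus strand and chr19:6987652-6987901 on the minus strand. Capitals mark matches to the letters TGANTCA (AP-1), ACGTG or GCGTG (hypoxia response), GGGCGG (Sp1) and GCGNGGGCG (Egr), searched on both strands.
Vegfa: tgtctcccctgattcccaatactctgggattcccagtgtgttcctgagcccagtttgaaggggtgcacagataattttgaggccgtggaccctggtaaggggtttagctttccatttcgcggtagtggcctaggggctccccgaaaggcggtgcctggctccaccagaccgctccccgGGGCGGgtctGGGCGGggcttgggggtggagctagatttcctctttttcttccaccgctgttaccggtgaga
Hgf: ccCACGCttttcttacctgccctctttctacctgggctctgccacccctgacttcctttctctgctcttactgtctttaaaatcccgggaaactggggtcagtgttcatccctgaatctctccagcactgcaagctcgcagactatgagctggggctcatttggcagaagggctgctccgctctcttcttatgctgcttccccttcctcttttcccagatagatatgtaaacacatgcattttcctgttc
Vegfb: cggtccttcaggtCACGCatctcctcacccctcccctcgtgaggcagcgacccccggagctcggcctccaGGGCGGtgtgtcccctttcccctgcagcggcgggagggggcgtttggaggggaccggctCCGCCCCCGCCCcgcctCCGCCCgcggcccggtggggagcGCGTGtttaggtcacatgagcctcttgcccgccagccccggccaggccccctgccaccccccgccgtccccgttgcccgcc

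The Vegfa window shown held 2 Sp1 matches, at -72 to -67 and -62 to -57 from the start, and none of the other motifs. A window before a further RefSeq start of Vegfa, inside the locus at chr17:46025164-46025413, held 2 hypoxia matches, at -218 to -214 and -211 to -207, and 1 Sp1 match. The Hgf window shown held 1 hypoxia match, at -248 to -244 on the minus strand, and the window of a further Hgf start held 0 matches. In the Vegfb window there were 4 Sp1 matches, 2 hypoxia matches and 1 Egr match that overlapped 2 of the Sp1 matches. RefSeq windows were at hand for 6 of the 9 genes, not for Pdgfb, Angpt1 and Angptl4. None of the windows of these 6 genes held TGANTCA. Of 32851 windows of this length, 6.75% held the AP-1, 38.6% the hypoxia, 32.7% the Sp1 and 4.70% the Egr letters. These matches describe the letters only, in a short window.

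Across the 6 libraries the 9 genes fell into 3 ranges. Pdgfa, Vegfa, Pdgfb and Vegfb were the main transcripts, with mean FPKM values of 51.7, 44.4, 41.6 and 16.0, and together they held 90.2 to 97.4% of the FPKM of the 9 genes in each library. Vegfc followed with a mean of 6.80. Hgf (mean 1.27) and Angpt1 (1.13) passed an FPKM of 1 in 2 and 3 libraries, whereas Angptl4 (0.381) and Fgf2 (0.188) stayed below it in all 6. The gene with the highest level changed with the condition. It was Pdgfa in both DMSO libraries and in the GFP library, Vegfa in 427 cells with PMA and in the EICD library, and Pdgfb in cells labelled KD with PMA.

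**Figure D1:**
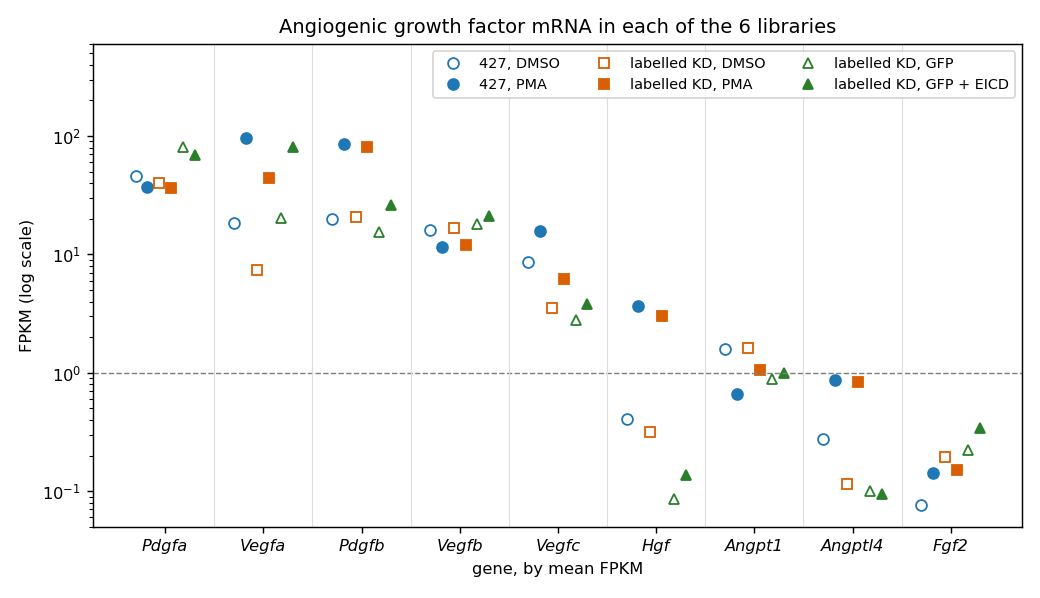
FPKM (log axis) of the 9 genes in each of the 6 libraries, 1 symbol per library, with open symbols for DMSO or GFP and filled symbols for PMA or GFP plus EICD; the dashed line marks an FPKM of 1. Vegfa ranges from 7.39 to 96.2 and its filled symbols all lie above the open ones, while Vegfb stays between 11.7 and 21.2.

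With PMA, Vegfa, Pdgfb and Hgf mRNA were more than 2-fold higher in both lines. Ratios are given as log2 of FPKM with 0.01 added to both libraries, and the count took named loci that reached 1 FPKM in either library. In 427 cells 7 of the 9 genes passed this minimum, of which 3 were more than 2-fold higher and 1, Angpt1, more than 2-fold lower. Of all 10643 such loci, 3.91% were more than 2-fold higher and 4.67% lower. In cells labelled KD 7 of the 9 passed, 3 were higher and 0 lower, against 3.51% and 5.69% of 10624 loci. Hgf passed only through the PMA library of each line, and Angpt1 in 427 cells only through the DMSO library. The direction of their calls is thus bound to the minimum. With a minimum FPKM of 10, 2 genes were higher and 0 lower in each line. When the median ratio of all libraries was set to 1, the shares in cells labelled KD were 4.44% and 4.06%, and every PMA ratio in these cells was larger by 0.12. The median log2 ratio over all 9 genes was 0.88 in 427 cells and 0.83 in cells labelled KD, beside -0.12 and -0.15 over all such loci. With 1 library per condition no test was made, and the lines were not taken as replicates of each other. Intervals given with a ratio are exact 95% binomial intervals from estimated fragments, and they cover counting error only, since PCR copies and differences between cultures are not in them.

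Vegfa (chromosome 17, 46016993 to 46032397, minus strand, GRCm38) stood at 18.4 FPKM with DMSO and 96.2 with PMA in 427 cells, a log2 ratio of 2.39 (interval 2.31 to 2.46). In cells labelled KD it had 7.39 with DMSO and 43.9 with PMA, a log2 ratio of 2.57 (2.45 to 2.69). Both PMA libraries thus lay above both DMSO libraries, and in each line Vegfa ranked among the highest 81 loci by PMA ratio.

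Pdgfb (chromosome 15, 79995900 to 80014808, minus strand), which encodes the chain of PDGF-BB, had an FPKM of 19.9 with DMSO and 85.4 with PMA in 427 cells, a 4.29-fold higher level (log2 interval 2.02 to 2.18). The values in cells labelled KD were 20.8 and 81.5, a log2 ratio of 1.97 (1.89 to 2.05). The levels of the lines lay close together in each condition. Pdgfa (chromosome 5, 138976014 to 138997370, minus strand), the gene of the other classical PDGF chain, had 46.2 and 37.1 in 427 cells and 39.8 and 36.1 in cells labelled KD, with log2 ratios of -0.32 (-0.40 to -0.23) and -0.14 (-0.23 to -0.06). The PMA ratio in cells labelled KD lay next to the median of all loci.

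Hgf (chromosome 5, 16553495 to 16622351, plus strand), the ligand of Met, showed the largest PMA ratio of the 7 genes that passed, a rank that was lost with a larger amount added. Its FPKM was 0.409 with DMSO and 3.68 with PMA in 427 cells, an estimated 38.2 and 363 fragments, and 0.318 and 2.99 in cells labelled KD, an estimated 28.4 and 301 fragments. The log2 ratios were 3.14 (2.70 to 3.70) and 3.20 (2.70 to 3.87), an 8.81-fold and a 9.17-fold higher level. After adding 1 instead, the ratios were 1.73 and 1.60, since this amount exceeds the level with DMSO, and lay below those of Vegfa (2.33 and 2.42) and Pdgfb (2.05 and 1.92) computed in the same way.

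Vegfc (chromosome 8, 54077271 to 54186454, plus strand) had an FPKM of 8.64 and 15.9 in 427 cells and of 3.51 and 6.24 in cells labelled KD. Its log2 ratios of 0.88 (0.73 to 1.03) and 0.83 (0.59 to 1.07) stayed under a 2-fold difference, with intervals above 0. Vegfb (chromosome 19, 6982473 to 6987651, minus strand) had lower values with PMA, 11.7 against 16.1 in 427 cells and 12.1 against 16.8 in cells labelled KD, with log2 ratios of -0.46 (-0.65 to -0.28) and -0.48 (-0.66 to -0.30). Within the VEGF family the 3 genes therefore differed with PMA in size and direction.

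Angpt1 (chromosome 15, 42424727 to 42676977, minus strand), the Tie2 agonist, had an FPKM of 1.58 with DMSO and 0.660 with PMA in 427 cells, a log2 ratio of -1.25 (-1.66 to -0.87), and of 1.61 and 1.06 in cells labelled KD, a log2 ratio of -0.59 (-0.94 to -0.27). It was lower with PMA in both lines, more than 2-fold only in 427 cells, where the ratio was -0.64 with 1 added to both libraries. Angptl4 (chromosome 17, 33773750 to 33783365, minus strand) stayed under an FPKM of 1, with 0.276 and 0.862 in 427 cells and 0.116 and 0.839 in cells labelled KD, an estimated 24.6, 81.0, 9.87 and 80.5 fragments. Its log2 ratios were 1.61 (0.96 to 2.33) and 2.76 (1.88 to 3.95), higher with PMA in both lines. Fgf2 (chromosome 3, 37348346 to 37410108, plus strand) had 0.0761 and 0.143 in 427 cells and 0.194 and 0.152 in cells labelled KD, with intervals that include 0 in both lines (-0.13 to 2.06 and -1.19 to 0.43). This locus shares 5199 bases with Nudt6 on the opposite strand, and strand was not stated for the counting, so that fragments from the shared part cannot be told apart.

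The epithelial markers differed with PMA too. Their median log2 ratio was 0.79 in 427 cells and 0.50 in cells labelled KD, above the -0.12 and -0.15 of all loci. Krt18 (1.26 and 0.78), Cdh1 (0.91 and 0.75), Epcam (0.82 and 0.63) and Krt8 (0.77 and 0.38) had higher values with PMA in both lines, of which Krt18 in 427 cells was past 2-fold, from 71.6 to 171 FPKM. Krt5 (-0.06 and -0.14) and Krt14 (-0.14 and -0.40), which made up most of the summed FPKM of these markers, had slightly lower values. The part of these markers in the values above was not tested.

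**Figure D2:**
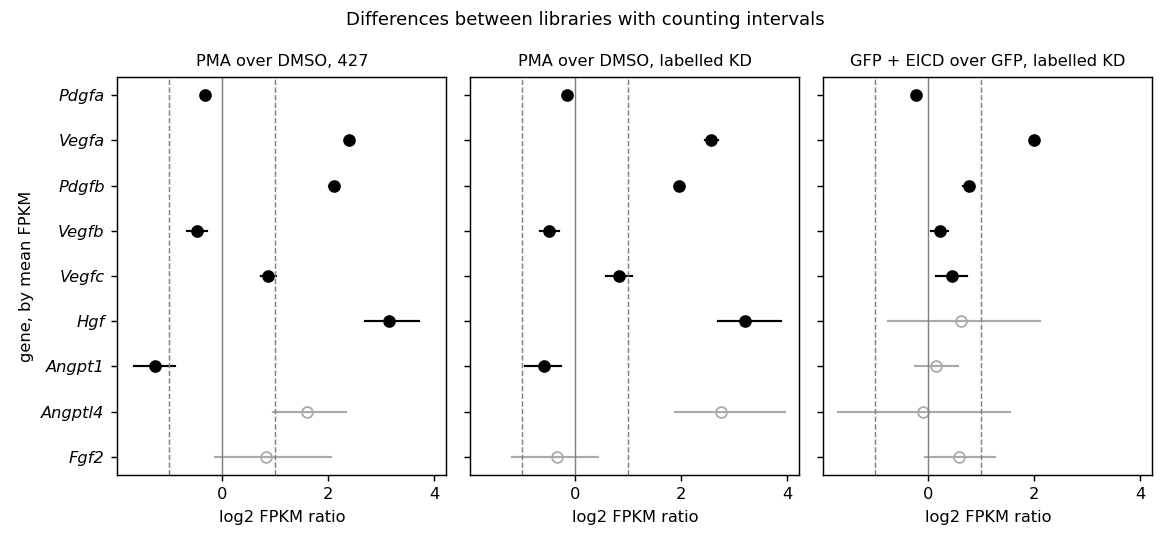
Log2 FPKM ratios of the 9 genes for PMA over DMSO in 427 cells and in cells labelled KD, and for GFP plus EICD over GFP, with bars for the 95% counting interval; grey open points are genes under an FPKM of 1 in both libraries, and dashed lines mark a 2-fold difference. Among the black points, Vegfa lies beyond 2-fold in all 3 panels, Pdgfb and Hgf in the PMA panels, and Angpt1, on the lower side, in 427 cells. Angptl4, in grey, lies beyond 2-fold in both PMA panels.

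To ask whether PMA acted alike in 427 cells and in cells labelled KD, the ratios of the lines were subtracted. Of the 7 genes that reached 1 FPKM in any of these 4 libraries, 0 differed more than 2-fold between the lines in their PMA ratio, and 3.27% of 10845 loci did. The difference, 427 minus labelled KD on the log2 scale, was -0.18 for Vegfa, 0.13 for Pdgfb, -0.06 for Hgf, 0.05 for Vegfc, 0.02 for Vegfb, -0.17 for Pdgfa and -0.66 for Angpt1. Over all these loci the median size of the difference was 0.16, so Angpt1 stood farther from 0 than the median locus, and Vegfa and Pdgfa were close to it. For the genes under an FPKM of 1 it was 1.16 for Fgf2 and -1.15 for Angptl4. These differences were not tested. Sppl2b FPKM was not lower in the libraries labelled KD, and its part in these differences was not tested.

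**Figure D3:**
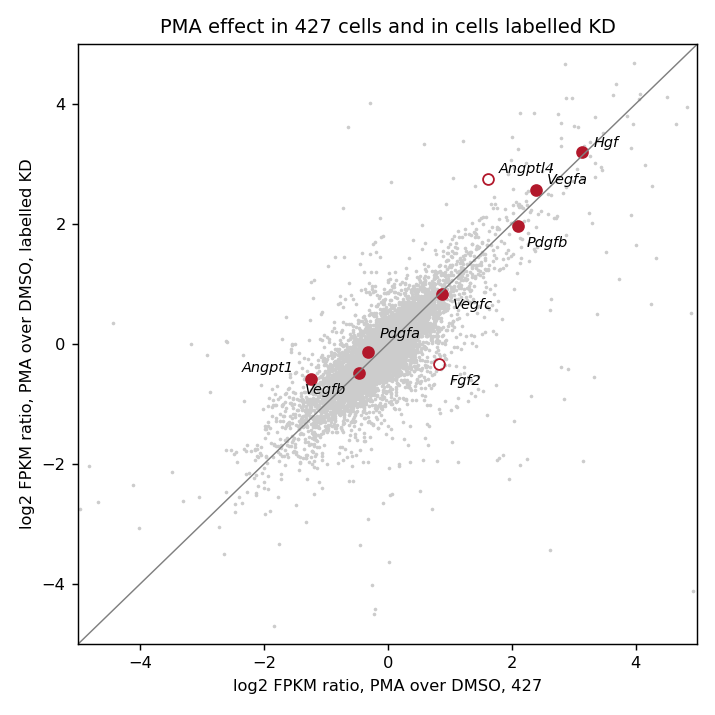
Log2 FPKM ratio of PMA over DMSO in 427 cells (x axis) and in cells labelled KD (y axis), with 10845 loci in grey, of which 34 lie outside the axes, and the 9 genes in red (open where the FPKM was under 1 in all 4 libraries). Hgf, Vegfa and Pdgfb lie at the upper end near the diagonal, and Angptl4, Fgf2 and Angpt1 lie off it.

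Comparing the lines directly, Vegfa and Vegfc were more than 2-fold lower in the cells labelled KD, with DMSO and with PMA. With DMSO, 6 of the 9 genes passed the minimum, 0 were more than 2-fold higher and 2 lower, against 3.11% and 2.76% of 10706 loci. With PMA, 7 passed, 0 were higher and 2 lower, against 2.19% and 2.75% of 10518 loci. The log2 ratio of labelled KD to 427 was -1.31 (-1.45 to -1.18) with DMSO and -1.13 (-1.18 to -1.08) with PMA for Vegfa, and -1.30 (-1.53 to -1.07) and -1.34 (-1.51 to -1.19) for Vegfc. Vegfb, by contrast, had ratios of 0.07 (-0.10 to 0.24) and 0.05 (-0.15 to 0.24). Pdgfb had 0.07 (-0.03 to 0.17) with DMSO and -0.07 (-0.11 to -0.02) with PMA. For Angpt1 the ratio was 0.02 with DMSO and 0.68 (0.27 to 1.10) with PMA. The comparison with DMSO and that with PMA use separate libraries, but the PMA ratios above are built from the same 4. Of the 6 epithelial markers only Krt8 was past 2-fold, higher in cells labelled KD (80.1 and 311 FPKM with DMSO, 136 and 403 with PMA). Krt5 (log2 ratio -0.50 with DMSO and -0.59 with PMA) and Krt14 (-0.27 and -0.53) had lower values. Krt18 had 0.32 and -0.16, Epcam 0.30 and 0.11, and Cdh1 0.19 and 0.03. The median of the 6 was 0.25 and -0.06. The part of these markers in the values above was not tested. The knockdown, the clone and the level of Sppl2b against its label cannot be told apart here.

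The question of the transfected libraries was what EICD alone does to gene expression. Vegfa mRNA stood at 20.2 FPKM with GFP alone and at 80.5 with EICD, a log2 ratio of 2.00 (1.92 to 2.07) and a 3.99-fold higher level, which placed it at 55 from the top among 10687 loci. It was the only one of the 9 genes past a 2-fold difference. Of the 9 genes 5 passed the minimum, with 1 more than 2-fold higher and 0 lower, against 3.55% and 0.524% of those loci. The median log2 ratio over all 9 genes was 0.45, beside 0.07 over all such loci. Pdgfb had an FPKM of 15.5 and 26.4, a log2 ratio of 0.77 (0.67 to 0.88), above 0 and under 2-fold. Vegfc had 2.78 and 3.80, a log2 ratio of 0.45 (0.16 to 0.74), and Vegfb 18.1 and 21.2, a ratio of 0.22 (0.06 to 0.38). Pdgfa was the gene with a lower value, 81.1 with GFP and 69.7 with EICD, at -0.22 (-0.28 to -0.15). The ratio of Vegfa thus lay well above those of the other 4 genes.

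The remaining 4 genes were under an FPKM of 1 in both transfected libraries. Angpt1 had 0.882 and 0.989, with a log2 ratio of 0.16 (-0.24 to 0.57). Hgf had 0.0865 and 0.138, an estimated 7.58 and 12.7 fragments, and with an interval that includes 0 a difference was not detectable at this depth. Angptl4 had 0.101 and 0.0947 and Fgf2 0.224 and 0.340, with intervals that include 0. Epithelial markers moved in the same comparison, with a summed FPKM of 15017 with GFP and 10856 with EICD and Krt8 more than 2-fold lower (142.8 and 70.2). Their part in the Vegfa value was not tested. No replicate transfection was sequenced, so that EICD and a difference between the 2 transfections cannot be told apart.

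**Figure D4:**
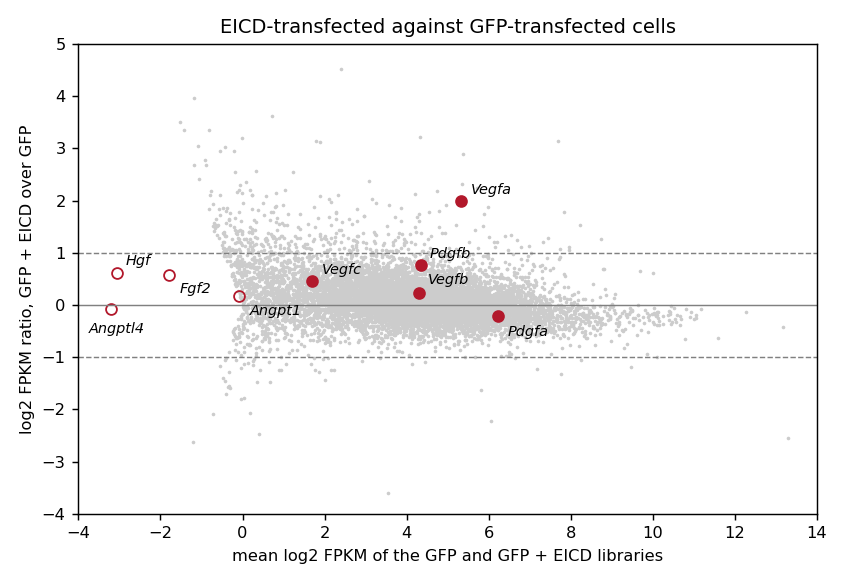
Log2 FPKM ratio of GFP plus EICD over GFP (y axis) against the mean log2 FPKM of both libraries (x axis) for 10687 loci in grey, of which 16 lie outside the axes, with the 9 genes in red (open where the FPKM was under 1 in both libraries). Vegfa lies at 2.00, above the 2-fold line and apart from the other 8 genes.

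Before any EICD, the transfected and sorted cells already differed from the DMSO-treated cells labelled KD. Vegfa stood at 20.2 FPKM after GFP transfection and at 7.39 with DMSO, a log2 ratio of 1.45 (1.32 to 1.58), and Pdgfa 81.1 and 39.8, a ratio of 1.02 (0.95 to 1.10). Of the 9 genes 6 passed the minimum, of which these 2 were more than 2-fold higher and 0 lower, against 3.56% and 4.14% of 10687 loci. Angpt1 (-0.86, -1.24 to -0.50), Pdgfb (-0.43, -0.54 to -0.32) and Vegfc (-0.34, -0.63 to -0.04) had lower values in the GFP library, and Hgf, under an FPKM of 1, had 0.0865 against 0.318. Transfection, sorting, serum and the DMSO treatment differ together in this comparison and cannot be told apart. Among the epithelial markers, Krt5 (log2 ratio 1.33) and Krt14 (1.10) were more than 2-fold higher and Krt8 (-1.12) lower in the GFP library, with a summed FPKM of 15017 against 6781, and their part in the values was not tested. The DMSO library also serves as control for PMA above, and the GFP library as control for EICD.

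Ratios of genes within a library do not depend on how the library was scaled. The ratio of Pdgfb to Pdgfa FPKM was 0.430 in 427 cells with DMSO and 2.30 with PMA, 0.523 and 2.26 in cells labelled KD, and 0.191 with GFP and 0.379 with EICD. Pdgfb thus exceeded Pdgfa in the PMA libraries and in no other. Vegfa made up 42.7% and 77.8% of the FPKM of Vegfa, Vegfb and Vegfc in 427 cells with DMSO and PMA, 26.7% and 70.6% in cells labelled KD, and 49.1% and 76.3% with GFP and EICD. The share of Vegfc was between 3.60% in the EICD library and 20.1% in 427 cells with DMSO.

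The genes most like each factor over the 6 libraries were found by the root mean square difference of centred log2(FPKM + 1), among 10543 loci with a mean FPKM of 1 or more, for the 5 factors whose own values spanned 1 or more on this scale. Nearest to Vegfa were Lif (0.34), a cytokine of the interleukin-6 family, Plk3 (0.34), a stress-responsive kinase, and Hcar2 (0.36), a metabolite receptor. Lif had 11.9 FPKM with DMSO and 129 with PMA in 427 cells, and 21.8 with GFP and 63.0 with EICD. Near Pdgfb were Prss22 (0.13), Plscr1 (0.16) and Csf1 (0.16), near Hgf were Serpinb9 (0.17), F2rl1 (0.17), the gene of protease-activated receptor 2, and Tnip3 (0.18), near Vegfc were Wnt11 (0.07), Pla1a (0.17) and a locus named Pol (0.22), and near Pdgfa were Def6 (0.08), Frmd4b (0.09) and Shf (0.10). The 1 added flattens differences at low FPKM, so genes near on this scale need not share fold differences. With GFP and EICD, F2rl1 had 68.6 and 53.2 FPKM beside 0.0865 and 0.138 for Hgf. In the same libraries Wnt11 had 0.0815 and 0.413 beside 2.78 and 3.80 for Vegfc. These are descriptions over 6 libraries that share lines and treatments.

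Of 14 receptor genes, 7 reached an FPKM of 1 in any library. Nrp1 and Nrp2, the coreceptors of VEGF, Met, the receptor of HGF, and Fgfr2 were the 4 that reached 10, whereas the VEGF receptors Flt1, Kdr and Flt4 and the angiopoietin receptors Tek and Tie1 were at most 0.149 in any library. Pdgfra was at most 0.138, and Pdgfrb was between 0.038 and 1.99. With PMA, none of the 6 receptor genes tested was past 2-fold in 427 cells, and 2 of 7 were higher in cells labelled KD, Nrp2 (34.9 and 77.1 FPKM, log2 ratio 1.14) and Fgfr1 (log2 ratio 1.13). Nrp2 had 46.2 and 87.2 in 427 cells, just under 2-fold, and Fgfr1 had 4.15 and 6.26 there. With EICD 2 of 6 were higher, Fgfr1 (1.17 and 2.87, 1.28) and Fgfr3 (4.74 and 9.91, 1.06). Of all loci at this minimum, 3.91% were higher and 4.67% lower with PMA in 427 cells, and 3.51% and 5.69% in cells labelled KD. With EICD the shares were 3.55% and 0.524%. The same shares stand beside the counts of the lists below.

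Other ligands of the same families were mostly low. Of 14, 8 reached an FPKM of 1 and 2 reached 10, Angptl2 (23.6 to 37.3) and Pdgfc (6.15 to 11.9). Fgf18 was more than 2-fold higher with PMA in both lines (0.987 and 5.18 in 427 cells, 0.895 and 2.64 in cells labelled KD), and Figf, the gene of VEGF-D, was lower in both (log2 ratios -1.15 and -2.06). Fgf1 was lower in cells labelled KD (3.52 and 0.991), and under 2-fold lower in 427 cells (1.41 and 0.808). This made 1 higher and 1 lower of 6 in 427 cells, and 1 higher and 2 lower of 7 in cells labelled KD. With EICD 2 of 6 were higher, Angptl6 (0.458 and 2.39 FPKM) and Mst1 (2.42 and 5.80), the gene of an HGF-like ligand, and 0 lower.

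Among 12 genes for processing proteases and their inhibitors, 1 of 8 was more than 2-fold higher with PMA in each line. In 427 cells this was Plau (28.5 and 78.6), the urokinase that can activate HGF, which had 24.8 and 38.2 in cells labelled KD. In cells labelled KD it was Ccbe1 (1.65 and 4.36), a cofactor for the maturation of VEGF-C, which had 6.29 and 12.3 in 427 cells. Like Vegfc, Ccbe1 was more than 2-fold lower in cells labelled KD than in 427 cells, with log2 ratios of -1.92 with DMSO and -1.50 with PMA. With EICD 1 of 9 was higher, Hgfac (0.376 and 1.11), the HGF activator. Spint1 and Spint2, inhibitors of HGF-activating proteases, were high throughout (61.4 to 88.5 and 123 to 150).

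Of 9 genes listed as angiogenesis inhibitors, 0 of 7 were higher and 1 lower with PMA in each line, in both cases Vash2 (1.45 and 0.345, 2.95 and 0.657). Vash2 was listed beside its relative Vash1, but its product is not an established inhibitor, so its values do not describe one. The most abundant was Thbs1, thrombospondin 1, with 594 and 594 in 427 cells, 454 and 424 in cells labelled KD, and 166 and 133 with GFP and EICD. With EICD 1 of 8 was higher, Serpinf1 (0.522 and 1.10). Between the lines with DMSO, 4 of 8 were higher in cells labelled KD, Thbs2, Serpinf1, Vash2 and Sparc, and 1, Timp3, was lower. Of all loci in this comparison 3.11% were higher and 2.76% lower. Serpinf1 reached an FPKM of 1 only in cells labelled KD (0.319 and 2.22), and Timp3 only in 427 cells (1.42 and 0.523).

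Of 15 hypoxia genes, 12 reached an FPKM of 1 in either library of each comparison and were counted. With PMA 1 was higher and 1 lower in each line, Egln3 (2.47 and 5.55 in 427 cells, 4.63 and 12.5 in cells labelled KD), an oxygen sensor, being the higher one in both. The lower one was Ddit4 in 427 cells (172 and 69.4) and Bnip3 in cells labelled KD (35.3 and 14.5). Each was also lower in the other line, under 2-fold. Ddit4 had 140 and 74.1 in cells labelled KD, and Bnip3 had 15.1 and 10.4 in 427 cells. With EICD Ddit4 was higher (148 and 310) and Ankrd37 lower (2.06 and 0.864). Slc2a1, Pgk1 and Ldha, glucose uptake and glycolysis genes, were not past 2-fold in these 3 comparisons. The median log2 ratio of these 12 was -0.15, -0.13 and -0.03 for PMA in 427 cells, PMA in cells labelled KD and EICD, near the -0.12, -0.15 and 0.07 of all loci. Epas1, Car9 and Adm stayed under an FPKM of 1 and were left out. With PMA, Car9 had higher values (0.116 and 0.486, 0.0958 and 0.796) and Adm lower ones (0.201 and 0, 0.374 and 0.0254). With GFP and EICD, Car9 had 0.123 and 0.393, and Adm 0 and 0.0267. Among 8 genes of the PPAR list, which bears on Angptl4 as a classical PPAR target, 4 reached an FPKM of 1 and were counted. Ppard was higher with PMA in 427 cells (21.3 and 49.9). In cells labelled KD Ppard had 22.0 and 39.4, under 2-fold. Cpt1a was lower in both lines (36.1 and 15.5, 46.1 and 13.4), and with EICD 0 of these 4 were past 2-fold. Genes under an FPKM of 1 were left out, such as Pparg, with 0.0671 with GFP and 0.839 with EICD.

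Further list genes passed 2-fold between the lines or after transfection. With DMSO, Pdgfrb (log2 ratio 1.75), Fgf1 (1.32), Angpt2 (1.00) and Bnip3 (1.22) were higher in cells labelled KD than in 427 cells, beside Serpinf1 (2.76), Sparc (1.30), Thbs2 (1.06), Vash2 (1.02) and the lower Timp3 (-1.42). With PMA, Pdgfrb, Thbs2 (1.61), Serpinf1 (3.61) and Egln3 (1.17) were higher, and Figf (-1.76), Plau (-1.04) and Timp3 (-1.16) lower. In the GFP library against DMSO, Figf (1.03), Adamts1 (1.31) and Timp3 were higher, and Pdgfrb (-4.99), Fgfr1 (-1.06), Angpt2 (-1.04), Thbs1 (-1.45), Serpinf1 (-2.07), Vash2 (-1.09) and Bnip3 (-2.31) lower. Here Pdgfrb (1.52 with DMSO and 0.038 with GFP), Angpt2 and Serpinf1 passed the minimum only through the DMSO library, and Timp3 only through the GFP library. Between the lines, Pdgfrb, Angpt2 and Serpinf1 passed only through cells labelled KD, and Figf and Timp3 only through 427 cells. The direction of these calls is thus bound to the minimum. Of the ligand, receptor, processing, inhibitor, hypoxia and PPAR lists, the abundant genes not named above were Furin, Pcsk6, Col18a1, Hif1a, Arnt, Vhl, Egln1, Egln2, Rxra and Plin2, with mean FPKM values between 16.8 and 109.

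**Figure D5:**
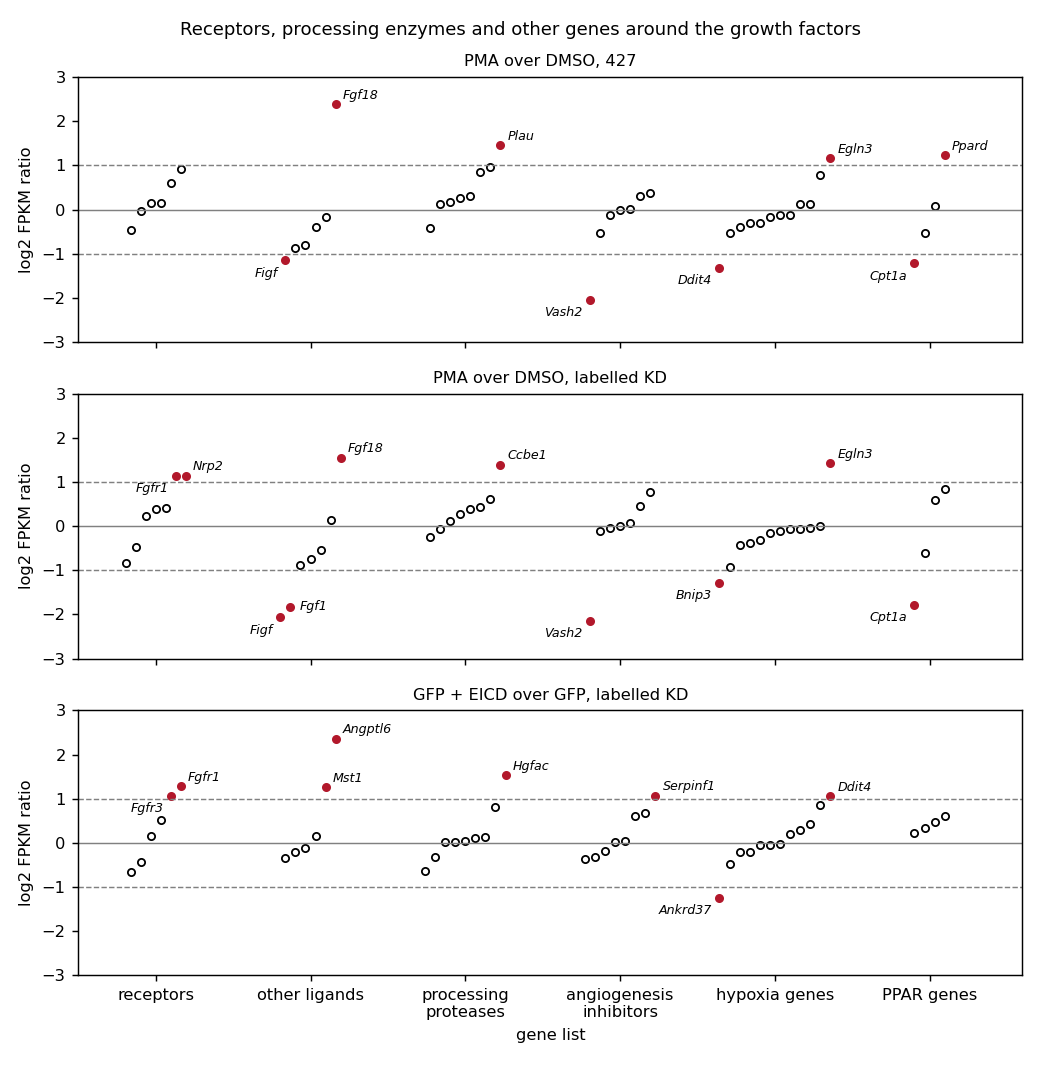
Log2 FPKM ratio (y axis) of each gene that reached 1 FPKM in either library, by gene list (x axis), for PMA over DMSO in 427 cells and in cells labelled KD and for GFP plus EICD over GFP; filled red points are past 2-fold (dashed lines) and open points are not. Fgf18, Figf, Vash2, Egln3 and Cpt1a are past 2-fold in both PMA panels, and none of them is past 2-fold in the EICD panel.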

How the data were processed

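RNA of 6 libraries, 1 per condition, was sequenced as paired ends. According to the methods, the authors aligned reads with TopHat 2.1.1, and deposited FPKM computed with Cufflinks 2.1.1 and normalized with Cuffdiff 2.1.1 on GRCm38. The submitters' processing notes also name STAR 2.4.0b. Cufflinks splits fragments among assembled isoforms, so FPKM depends on the gene model. SciPy 1.17.1 gave the intervals, pandas 2.3.3 and NumPy 2.4.6 the ratios, and matplotlib 3.10.9 the plots, under Python 3.11.15. For ratios 0.01 was added to both libraries, not to the EICD library alone. No p-value was computed. Depth was taken from genes with 1 transcript of over 2500 bases (GENCODE M21), as the median of the FPKM that 1 fragment is worth. Only products of FPKM and transcript length in kilobases between 0.02 and 0.055 were used. This preset window limits the depth that can be found. Fragments per gene use the longest transcript and are upper estimates, so the intervals are somewhat too narrow. The calculation was tried on simulated data with counting error only and with the same transcript lengths. Such data cannot show errors from isoforms, from the window for depth or from differences between cultures. All 9 genes are named. Of the 6 gene lists, genes past 2-fold and those with a mean FPKM of 10 or more were named. Pdgfc and the receptors at low levels were named after their values were seen. The genes, lists and motifs were chosen with earlier results of these data known. Alternatives were 0.1 or 1 added, minima of 0.1, 10 or none, 2 scalings and, for EICD, 0.001 or 0.01 added to the EICD library alone.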

Additional observations from a re-analysis of the deposited data

How the results depend on the processing

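Each condition has 1 library, so no replicate could be left out. The PMA and DMSO libraries were compared within each line. The lines were not used as pairs, and no paired test was made. Of 162 ratios of single genes recomputed with another amount added or another scaling, 151 stayed within the counting interval of the reported ratio, 11 moved beyond it and 0 changed sign among genes past 2-fold. Of 95 counts of genes past 2-fold, 86 stayed within 1.5 times the reported count. The shares of all loci past 2-fold moved more, 44 of 88 by over 1.5 times. For EICD the share higher was 1.67% with 1 added and 8.90% with no minimum, and the share lower 0.178% and 4.27%. For PMA in 427 cells, the number more than 2-fold lower was 0 in place of 1 with 1 added or with a minimum FPKM of 10, which leaves Angpt1 out. For the lines with DMSO, a minimum of 0.1 or none gave 1 higher, Fgf2, and a minimum of 10 gave 1 lower. For the GFP library against DMSO, a minimum of 0.1 or none gave 1 lower, Hgf. For the difference of PMA ratios, a minimum of 0.1 or none gave 2 genes past 2-fold, Fgf2 and Angptl4. With 1 added, Angpt1 still entered the count, at a ratio of -0.64. The other changes follow from which genes enter it. Genes under an FPKM of 1 rest on few fragments, and their ratios are limited by depth.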
